A study of Homo sapiens with 24 samples.

Results

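The labelled share of mRNA was followed over a uridine chase in the control line of a metabolic labelling study, in 12 of its 24 libraries. The members are the libraries whose titles name the control line, 3 at each of 0, 2, 4 and 6 h of chase. Both lines are HEK293 cells, an established human embryonic kidney line: the control has the genotype Flag/HA overexpression, and the other line, ZC3H7B-OE, overexpresses ZC3H7B, a CCCH zinc finger protein. All groups, the 0 h libraries and both lines included, had received 100 µM 4-thiouridine (s4U) together with 1 µg/mL doxycycline for 24 h, were then washed, and were chased with 10 mM uridine. Polyadenylated RNA was alkylated and sequenced, and each library gives 2 read counts for each gene entry, all reads and reads with T-to-C conversions. Neither the clonality of the lines nor the origin of replicates from separate cultures is stated in the labels. Each p-value therefore reflects the spread among these libraries, and that spread may be technical.

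In SLAM-seq, s4U that a cell has built into its RNA during the pulse is alkylated and is then read as C in place of T. Excess uridine ends the labelling, after which old transcripts are degraded and new ones are made without s4U. The labelled share of a gene, that is, its T-to-C reads as a percentage of all its reads, falls as labelled copies are replaced. The size of the gene's total in a library cancels out of it, but a total that changes during the chase can also move the share. Transcripts of immediate early genes and of many stress response genes are known for rapid decay, often through AU-rich elements of the 3′ UTR that recruit deadenylating factors. Transcripts of ribosomal proteins and of central metabolism are known as long-lived. Reads without a conversion, called unlabelled below, come from mRNA made before the pulse or after its end, and also from labelled molecules in which no conversion was read.

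The AU-rich heptamer TATTTAT was searched on the transcript strand of the longest annotated 3′ UTR of each gene, with overlapping matches counted. The annotation was GENCODE release 29 (build GRCh38), matched by gene identifier to read counts made on GRCh37. A 3′ UTR was matched to 7189 of the 7544 entries tested, and 39.0% of these UTRs held at least 1 match. Of the 10 genes with the lowest labelled share at 6 h (among those with a mean of at least 100 reads and at least 50% labelled at 0 h), 9 were matched and 4 held the heptamer. Of the 10 with the highest, 10 were matched and 1 held it. Of the 12 genes whose share was reduced to 50% of its initial value within 2 h, 12 were matched and 4 held it (CYR61, CSRNP1, ZNF830 and PIGF), a smaller part than over all UTRs. The first match is printed with 11 bases on each side and the heptamer in capitals for those 4 genes (SERTAD1, RGS16, IER5 and CYR61), for CSRNP1 and ZNF830 of these 12, and for RPS29, whose share hardly moved.
SERTAD1: gagtctacctgTATTTATtgaggagcgaa
RGS16: cccatgcgagaTATTTATacctcaaacac
IER5: ccataataatgTATTTATagaattaaaca
CYR61: actgaatgtttTATTTATcaaaatgtagc
CSRNP1: ttctctggattTATTTATttgttttaact
ZNF830: atattatctttTATTTATttcatccagcc
RPS29: ttttaaaatttTATTTATgtattgttttt
The windows lie at bases 1058 to 1086 of 1244 in the UTR of SERTAD1 (chromosome 19), 624 to 652 of 1669 in RGS16 (chromosome 1), 2094 to 2122 of 3013 in IER5 (chromosome 1) and 517 to 545 of 920 in CYR61 (chromosome 1). Those of CSRNP1 (chromosome 3), ZNF830 (chromosome 17) and RPS29 (chromosome 14) lie at bases 142 to 170 of 1200, 826 to 854 of 1090 and 551 to 579 of 6828. RGS16 and IER5 each held 4 matches, CYR61 and RPS29 held 2, and the other genes shown held 1. The UTR of RPS29 is that of a long annotated isoform, and which isoform the reads came from is not known. DDIT4, GADD45B, BBC3, ARC and MED26, also among the 10 lowest, held no match in the annotated UTR, and TXNIP, the tenth gene, was not matched to one. A match is a run of letters and not a tested site.

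The tables list 19692 entries, of which 19242 name 1 gene and the others name several genes together. Entries with a mean of at least 20 reads over the 12 control libraries were tested, 7544 in all. ACER2, with a mean of 20 reads, was the entry just inside this limit and PPP6R3, with 19.9, the one just outside. Depth in the control line ranged from 1502068 to 3676254 reads per library, and labelled reads from 830574 to 1579744. The 4 and 6 h libraries were deeper than those of 0 and 2 h, without overlap. Replicate 3 at 0 h stood apart from its partners: its normalization factor was 0.712, against 0.989 to 1.08 in the other 11 libraries, and its 10 most abundant entries took 10.7% of its reads, against 7.20% and 7.21% in the other 0 h libraries. The counts it moved most are given with and without it. Of the kidney and HEK293 markers, SALL1, EYA1, CDH2 and KRT8 passed the limit on reads, whereas PAX2 and PAX8 had 3 and 1 reads in all 12 libraries. Of the leukocyte and fibroblast markers only CD68 and FBLN1 passed it, and PTPRC, CD3E, COL1A2 and DCN were at 0.

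The typical gene lost label from the start of the chase, although the share taken over whole libraries hardly moved in the first 2 h. The median share over entries was 88.7% ± 0.420 (SD, n = 3) at 0 h, then 80.4% ± 2.45, 47.3% ± 0.826 and 27.9% ± 0.702 at 2, 4 and 6 h. Over all reads, the labelled share was 76.7% ± 1.67, 75.7% ± 1.82, 47.7% ± 0.759 and 29.9% ± 0.729 at these times. The 0 h libraries lay at 78.0%, 77.4% and 74.8% and the 2 h libraries at 77.2%, 76.2% and 73.7%, so that the groups overlapped in the share over all reads, whereas in the median over entries every 2 h library lay below every 0 h library. The change over all reads from 0 to 2 h was -0.996 percentage points (exact two-sided permutation p = 0.5), and without replicate 3 at 2 h it was 0.0123 points, with the opposite sign. From 2 to 4 h and from 4 to 6 h it was -28.0 and -17.7 points, each with an exact p of 0.1 (0.15 adjusted over the 3 intervals), the smallest that 3 against 3 libraries allow.

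Among the most abundant transcripts the share taken over their pooled reads was higher at 2 h than at 0 h. The 100 entries with the most reads held 66.9% ± 2.74 (SD, n = 3) labelled reads at 0 h and 70.5% ± 1.35 at 2 h, while all other entries went from 79.8% ± 0.963 to 77.1% ± 2.03. These pooled values were not tested. In a wider group, the 1886 most abundant tested entries, which held 72.5% of the reads, the median share went from 90.4% at 0 h to 82.5% at 2 h. No median was taken over the 100 entries alone, so the course of the typical gene among them is not given. By 6 h the order of the pooled shares was reversed, with 37.6% ± 0.699 labelled in the 100 and 28.6% in the others. The part of all reads that the 100 entries took went from 23.6% at 0 h to 20.4%, 17.2% and 15.2% at 2, 4 and 6 h. The 0 h means include replicate 3, whose 10 most abundant entries took 10.7% of its reads, against 7.20% and 7.21% in its partners. Values without that library were not taken for the 100 entries, so its part in these differences is not known.

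**Figure D1:**
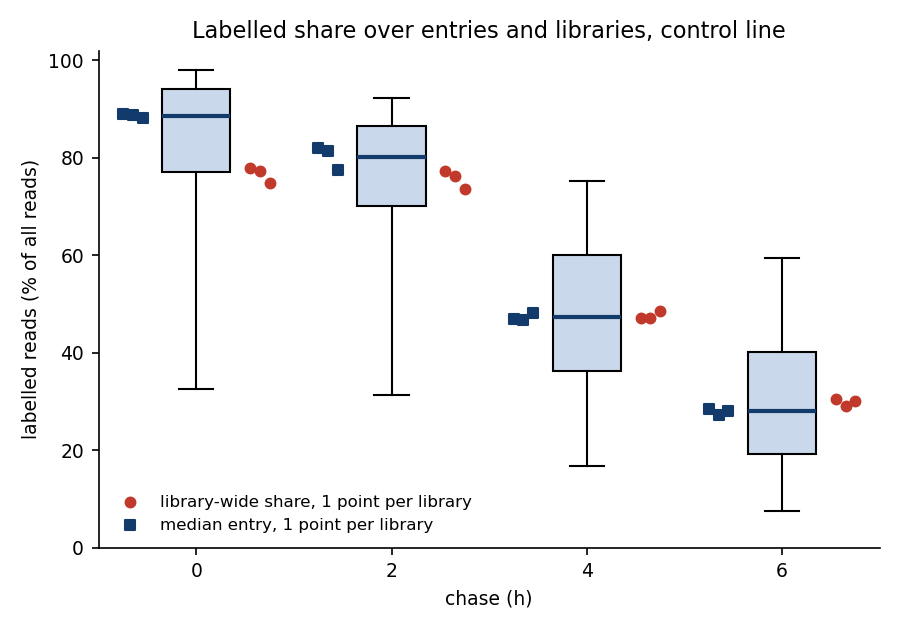
Labelled share (percent of reads, vertical axis) against hours of chase in the control line. Boxes show the median and quartiles of the 7544 tested entries (means of 3 libraries) with whiskers at percentiles 5 and 95, squares the median entry of each library and circles the share over all reads of each library: the median entry starts above the library-wide share and lies close to it at 4 and 6 h.

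Gene by gene, the fall was tested as the change in the log2 odds of a labelled against an unlabelled read, with a term for each library, by edgeR's quasi-likelihood test with Benjamini-Hochberg adjustment at 0.05. From 0 to 6 h the share fell in 6726 of 7544 entries (89.2%) and rose in 5 (0.0663%). In the separate intervals it fell in 2168 entries (28.7%) and rose in 96 (1.27%) from 0 to 2 h, fell in 5892 (78.1%) and rose in 7 (0.0928%) from 2 to 4 h, and fell in 5223 (69.2%) and rose in 8 (0.106%) from 4 to 6 h. Among the 4252 entries with a mean of at least 100 reads and at least 10% labelled at 0 h, the median loss was 4.89 percentage points in the first interval (quartiles 0.226 and 11.9), 32.7 in the second (18.6 and 40.0) and 17.8 in the third (13.7 and 22.0). The mean share was higher at 2 h than at 0 h in 1017 of these entries (23.9%).

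The time at which a gene came down to 50% of its own 0 h share, read by linear interpolation between the means, spread widely. Of the 4252 entries, 12 reached it by 2 h, 1692 (39.8%) between 2 and 4 h and 1498 (35.2%) between 4 and 6 h, while 1050 (24.7%) had not reached it at 6 h. Without replicate 3 at 0 h these numbers were 12, 1708, 1480 and 1052. The 12 earliest, named here after their values were seen, include 8 genes that began with at least 76.0% of their reads labelled: GADD45B, DDIT4, CSRNP1, MED26, ARC, CYR61, SERTAD3 and ZNF830. TTI2, PIGF and TMEM50B began near 20% and BMP8B varied from 43.6% to 100% between its 0 h libraries, so their early times rest on less.

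To compare genes with each other, the change of a gene's odds was also taken relative to that of all labelled and all unlabelled reads of the library. On this scale 3918 entries (51.9%) fell more steeply than the library from 0 to 6 h and 1379 (18.3%) less steeply. The steeper entries had a median share of 93.6% at 0 h and the shallower ones 65.2%. Their median log2 changes were -1.34 and -1.69 in labelled reads, and 4.29 and -0.76 in unlabelled reads. Steeper and shallower thus describe the odds of the share and not the loss of labelled reads. Centring on the median entry in place of the totals moved the median change over all entries from -1.29 to -0.10 on the log2 scale and the counts to 2255 steeper and 2392 shallower. Counts of steeper and shallower genes below are therefore given under both centrings, the second in brackets. The values per gene are relative to library totals unless stated.

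Immediate early genes encode transcription factors and regulators switched on within minutes of a stimulus. Of 20 members tested, 20 fell more steeply than the library [17 steeper, 1 shallower, JUND], and without replicate 3 at 0 h 18 did so and none was shallower. Their median share went from 89.5% to 63.8%, 21.9% and 8.10% at 0, 2, 4 and 6 h, against 88.6%, 80.2%, 47.3% and 28.0% over all tested entries. Of 13 members with enough reads, 12 had come down to 50% of their 0 h share by 4 h and 1 by 6 h. JUN, a subunit of the AP-1 factor, had shares of 89.1%, 89.1% and 88.4% in the 0 h libraries and 55.6%, 57.1% and 53.7% after 2 h. Its 4 h libraries stood at 15.0%, 15.7% and 14.5% and its 6 h libraries at 6.20%, 5.61% and 6.84%. No time overlapped the next in JUN, and its change relative to the library was -3.95 ± 0.13 (log2 odds ± SE, adjusted p = 1.5e-35). EGR1, a zinc finger factor of the same response, went from 94.1% ± 2.90 (SD, n = 3) to 47.6% ± 7.80, 16.4% ± 1.31 and 6.46% ± 0.859, a relative change of -4.72 ± 0.34. IER2 and IER5, nuclear proteins of the same response, began lower at 72.4% ± 1.37 and 86.3% ± 2.07 and came to 5.82% ± 1.56 and 4.78% ± 0.921. SRF, the factor that drives many immediate early promoters, had the highest share of the group at 6 h, 20.4% ± 1.82. MYC was covered by a mean of only 45 reads per library, and its share of 89.8% ± 6.80 at 0 h and 6.03% ± 4.55 at 6 h carries a wide spread at 2 h, from 32.1% to 70.0%. FOS had 3 reads in all control libraries and was not tested.

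The wider list of AU-rich and other short-lived transcripts had a like course of the share. Of 36 tested members 34 were steeper than the library and none was shallower [31 and 0], and 26 of 26 with enough reads had lost 50% of their share by 4 h. Their median share was 94.0%, 62.6%, 23.2% and 8.23% at the 4 times. GADD45B, a growth arrest and DNA damage protein, was the fastest, with 76.9%, 82.6% and 68.6% at 0 h and already 22.5%, 25.3% and 22.9% at 2 h. It reached 50% of its 0 h share at 1.45 h and ended at 2.43% ± 0.275. SERTAD1, RGS16 and CYR61, whose heptamers are shown above, went from 90.6% ± 2.89, 93.6% ± 0.228 and 94.2% ± 6.31 at 0 h to 3.86% ± 2.16, 4.36% ± 0.933 and 5.25% ± 2.32 at 6 h. TXNIP, an inhibitor of thioredoxin and of glucose uptake, went from 95.5% ± 4.81 to 54.2% ± 3.11 at 2 h and 5.07% ± 0.767 at 6 h. The slowest member with enough reads was SPRED1, an inhibitor of the MAP kinase cascade, at 20.1% ± 6.37.

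**Figure D2:**
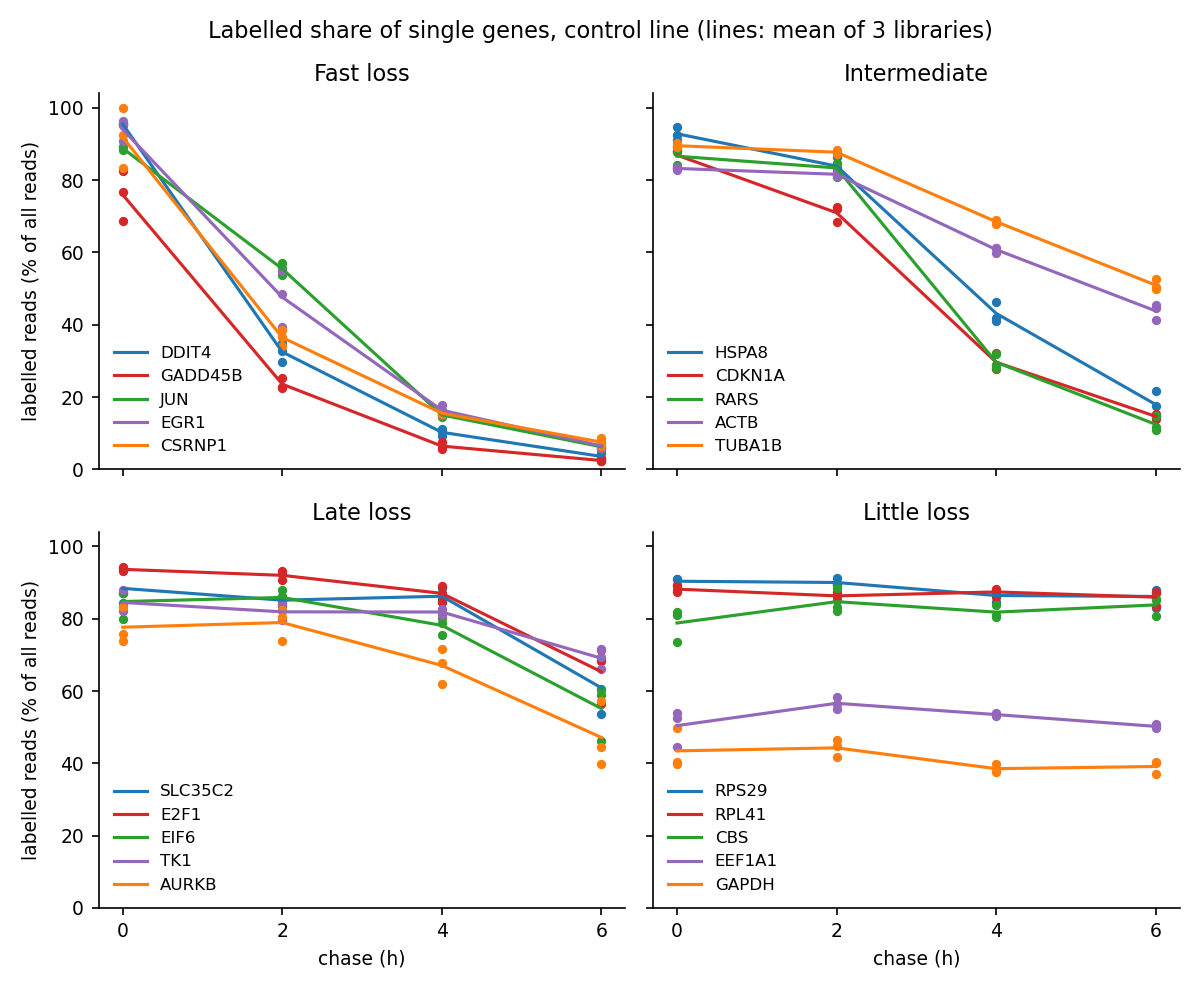
Labelled share (percent, vertical axis) against hours of chase for 20 genes of the control line, in panels of fast, intermediate, late and little loss of the share. Points are libraries and lines join the means of 3. In these means DDIT4 is at 32.5% by 2 h, ACTB at 43.8% by 6 h and RPS29 between 86.2% and 90.4% throughout. EIF6 and AURKB are drawn with the late genes but did not pass the test of pace.

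The integrated stress response list held both fast and slow members. Of 28 members tested 17 were steeper than the library and 7 shallower [14 and 9]. DDIT4, an inhibitor of mTORC1 signalling, had shares of 95.8%, 95.3% and 95.5% in its 0 h libraries and 32.7%, 34.9% and 29.8% after 2 h. The 4 h libraries stood at 9.23%, 11.1% and 10.4% and the 6 h libraries at 4.52%, 2.96% and 3.20%. It reached 50% at 1.51 h, and its relative change was -6.23 ± 0.21 (adjusted p = 1.2e-35). DDIT3, the pro-apoptotic factor CHOP, and SESN2, a leucine sensor, ended at 6.90% and 10.4%. At the other end stood enzymes of amino acid synthesis: SHMT2 of the serine pathway kept 63.8% at 6 h, PYCR1 of proline synthesis 67.2%, and CBS of the cysteine pathway 83.8% ± 2.68 against 78.8% ± 4.47 at 0 h. The CBS libraries at 0 and 6 h overlapped, and the plain change of its share was 0.41 ± 0.29 (adjusted p = 0.18). ATF4, the factor that drives these targets, went from 81.2% ± 6.54 to 35.0% ± 0.780, close to the library (relative change -0.01 ± 0.54).

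Most targets of p53 fell faster than the library. Of 18 tested, 13 were steeper than the library and 1 was shallower [13 and 4]. BBC3, the apoptosis inducer PUMA, went from 86.5% ± 4.92 to 60.3% ± 2.86, 12.7% ± 0.790 and 5.58% ± 0.589, and CDKN1A, the cell cycle inhibitor p21, from 86.9% ± 3.03 to 71.0% ± 2.23, 29.6% ± 2.31 and 14.6% ± 0.708. The shallower one was BAX, a pore-forming member of the BCL2 family, at 48.2%, 54.0% and 51.5% at 0 h and 46.9%, 44.6% and 55.2% at 6 h. Its libraries overlapped throughout, and its relative change was 2.86. MDM2 had 10 reads in all control libraries and was not tested.

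Chaperones differed widely among themselves. Of 21 cytosolic and mitochondrial chaperones, 15 were steeper and 4 shallower [8 and 5]. The stress-inducible DNAJB1 and HSPA1B kept 7.89% and 7.68% at 6 h, though reads of HSPA1B may be shared with its near-identical copy HSPA1A. HSPA8, the constitutive HSP70, went from 92.9% ± 1.80 to 17.9% ± 3.45. The 4 shallower members were HSP90AB1, HSPB1, HSPD1 and CDC37, and CDC37, which loads kinases onto HSP90, had 74.8%, 78.5%, 75.6% and 66.4% at the 4 times. Of 6 CCT chaperonin subunits, which form a single complex, CCT4 and CCT6A were steeper and TCP1 and CCT3 shallower [1 and 4], or 3 and 2 without replicate 3 at 0 h, and none of the 6 had lost 50% of its share by 4 h. In the endoplasmic reticulum list 6 of 16 were steeper and 7 shallower [5 and 10]: the inducible DNAJB9 kept 12.1% and XBP1 17.8%, against 57.7% in the disulfide isomerase PDIA6.

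Clock genes and zinc finger genes were fast as groups. Of 9 clock and PAR-bZIP genes 7 were steeper and 1, DBP, was shallower [5 and 1]. PER1, a repressor of the clock, held its share at 2 h (78.8% ± 4.61 against 81.9% ± 8.99 at 0 h) and came to 29.6% ± 5.68 and 6.32% ± 0.969 after that. DBP began with only 9.67% labelled. Of 244 tested genes with a ZNF symbol, 199 were steeper and 6 shallower [142 and 19], with a median share of 94.7%, 79.5%, 37.6% and 17.8%. Among the 124 of them with enough reads, 95 had lost 50% by 4 h and 1 had not by 6 h.

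Ribosomal protein transcripts were at the opposite end in the course of the share. Of 53 tested cytosolic ribosomal protein genes 44 were shallower than the library and 3 steeper [49 and 0], and without replicate 3 at 0 h 43 and 1. Their median share was 52.8%, 61.7%, 45.9% and 41.3% at the 4 times, and 34 of 37 with enough reads had not lost 50% by 6 h. RPS29 and RPL41 combined a high label with almost no loss. RPS29 had 91.1%, 91.0% and 89.1% at 0 h and 88.1%, 87.4% and 83.0% at 6 h, so that the groups lay apart by little. RPL41 had 87.9%, 89.4% and 87.3% at 0 h and 87.4%, 83.5% and 87.0% at 6 h, with overlap and a plain change of -0.27 ± 0.14 (adjusted p = 0.07). RPL11 began at 34.8% and ended at 20.0%, the lowest of the members with enough reads. The 3 steeper members were RPL37, RPS15A and RPS24, the last with a mean of only 27 reads. Ribosomal protein genes and EEF1A1 have many processed pseudogenes, and how the counting shared reads among copies is not given in the sources used here, so their values are uncertain.

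Respiratory chain and glycolytic transcripts were shallow as well. Of 49 respiratory chain genes 30 were shallower and 7 steeper [39 and 2], their median share moved from 70.0% to 46.6%, and 23 of 29 had not lost 50% by 6 h. COX8A, a subunit of cytochrome c oxidase, was at 59.6% at 0 h and 62.8% at 6 h, whereas UQCRFS1, the Rieske protein of complex III, went from 93.9% to 25.5%. Among 15 glycolytic genes 9 were shallower and 3 steeper [10 and 2]. The 3 steeper ones were HK2, SLC2A1 and SLC16A1, that is, the entry enzyme and the glucose and lactate carriers, at 25.9%, 23.8% and 30.0% at 6 h. The core enzymes PKM, TPI1 and LDHB kept 53.9%, 53.8% and 53.1%. GAPDH was at 40.5%, 39.9% and 49.9% at 0 h and at 36.9%, 40.3% and 40.1% at 6 h, and EEF1A1, the elongation factor, at 54.0%, 52.6% and 44.6% and then 49.6%, 50.1% and 50.9%. In both genes the 0 and 6 h libraries overlapped, and the plain change of EEF1A1 was -0.01 ± 0.09 (adjusted p = 0.92). ACTB and TUBA1B, of the cytoskeleton, were intermediate, with 83.3% ± 0.440 falling to 43.8% ± 2.22 and 89.6% ± 0.581 to 50.9% ± 1.53.

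Most of the remaining lists lay between these ends in their median share at 6 h, though the proteasome list, at 42.2%, lay above the ribosomal protein list. The nucleotide salvage list, with only 6 tested members, had the highest median of the gene lists, 51.8%, and 3 of its 3 members with enough reads had not lost 50% by 6 h. Translation factors had 12 of 27 members steeper and 7 shallower [8 and 11], aminoacyl-tRNA synthetases 5 and 3 of 16 [3 and 11], ribosome biogenesis factors 15 and 4 of 28 [9 and 12], and mitochondrial ribosomal proteins 23 and 16 of 56 [7 and 28]. Within each of them single genes differed widely: at 6 h RARS kept 12.4% and WARS 56.2%, NOP16 16.0% and NHP2 54.7%, and MRPL17 15.8% and MRPL28 67.7%. Subunits of the mitochondrial ribosome thus differed severalfold in the label left after 6 h. Proteasome subunits had 3 steeper members (PSMC2, PSMD12 and PSMD14) and 7 shallower of 18 [3 and 11], and cholesterol synthesis 7 and 5 of 14 [4 and 7], with EBP, a sterol isomerase, at 60.9%. DNA replication genes had 17 steeper and 1 shallower of 28 [11 and 9]. Mitotic genes had 12 steeper and 2 shallower of 19 [8 and 5], the 2 being CCNA2 and AURKB. CCNA2 began at only 44.3% and came to 16.9% at 6 h, the lowest share of the mitotic list at that time. AURKB went from 77.7% to 47.1%. The machinery of mRNA decay itself had 21 steeper and 6 shallower of 39 [15 and 13], from 16.3% in the nonsense-mediated decay factor UPF2 to 54.6% in the exosome subunit EXOSC5. SR proteins and hnRNPs had 21 and 7 of 32 [8 and 17]. The microRNA pathway had 5 and 2 of 10 [0 and 3], histones 5 and 2 of 16 [1 and 9], and nucleotide salvage 1 and 2 of 6 [0 and 4].

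**Figure D3:**
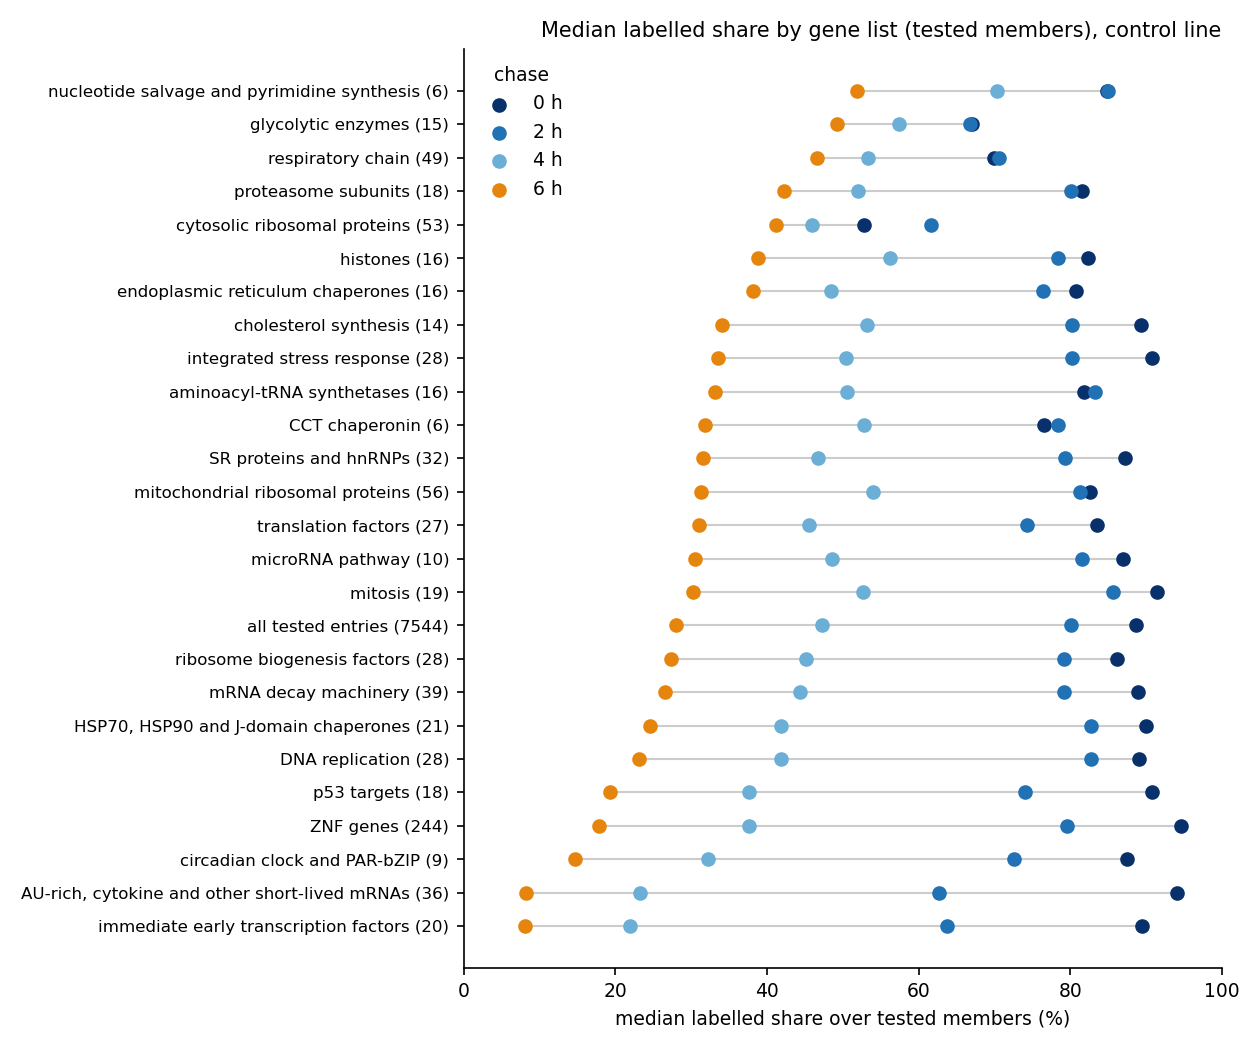
Median labelled share (percent, horizontal axis) of the tested members of each gene list at 4 chase times in the control line, with the number of members in brackets. Immediate early and short-lived transcripts end near 8%, and glycolytic, respiratory chain and ribosomal protein transcripts between 41.3% and 49.2%, with the 6 nucleotide salvage genes at 51.8%.

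Some genes kept their labelled share for 4 h and lost it late, or the reverse. The change in pace, that is, the change of the relative log2 odds from 4 to 6 h minus that from 2 to 4 h, was lower than 0 in 284 entries (3.76%) and higher in 589 (7.81%). Centred on the median entry the counts were 515 and 317, so the balance of the directions depends on the centring. Without replicate 1, 2 or 3 at 4 h only 409, 470 or 457 entries were called in either direction, against 873. SLC35C2, of a nucleotide sugar carrier family, had 87.1%, 84.3% and 93.9% at 0 h and still 85.5%, 84.7% and 88.5% at 4 h, and came to 60.5%, 68.5% and 53.6% at 6 h, a change in pace of -2.85 ± 0.64 (adjusted p = 0.0014). E2F1, an activator of S phase genes, and TK1, thymidine kinase, had the same course, with 87.0% ± 2.21 and 81.9% ± 0.831 at 4 h and 65.3% ± 7.87 and 69.1% ± 2.88 at 6 h. KIAA0753 did the reverse in its share, with 88.7% ± 9.89 at 2 h, 26.4% ± 3.79 at 4 h and 20.7% ± 2.70 at 6 h (3.17 ± 0.63, adjusted p = 0.00032). STARD4, a sterol carrier, had 97.4% ± 1.52, 50.8% ± 7.85 and 37.5% ± 1.89 at these times (3.74 ± 0.84). By limma the whole comparison called 139 entries, and SLC35C2, STARD4, KIAA0753 and AGPAT4 were not among them. GPR124, SERINC4, MAP3K12 and ATP6V1C2, which the naming rule also gives, carried few labelled reads.

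A falling share can come from fewer labelled reads, more unlabelled reads, or both, and levels in counts per 1000000 reads (CPM) separate these. As the libraries are bulk RNA without a stated spike-in, such levels are relative to the other transcripts, and fewer cells of a type and less RNA per cell cannot be told apart. From 0 to 6 h the labelled reads fell in 5854 entries (77.6%) and rose in 258 (3.42%), or 352 without replicate 3 at 0 h, and the unlabelled reads rose in 5364 (71.1%) and fell in 747 (9.9%). The gain was already seen at 2 h, when unlabelled reads had risen in 2364 entries (31.3%) and fallen in 627 (8.31%). Both parts moved in 3910 entries (51.8%), with labelled reads down and unlabelled reads up. In 665 entries (8.81%) both fell. In 1196 (15.9%) the unlabelled reads rose with no call in the labelled ones. All reads together fell in 2556 and rose in 2513 of the 7544 entries. The median log2 change of all reads was 0.79 in the immediate early list and 1.60 in the short-lived list. It was -1.69 in ribosomal protein genes and -1.70 in respiratory chain genes, against -0.05 over all tested entries.

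In DDIT4 unlabelled reads took the place of labelled ones, with no change of the total past the test. Its labelled CPM was 410, 296 and 320 at 0 h and 15.2, 9.44 and 11.5 at 6 h, while its unlabelled CPM was 18.0, 14.5 and 15.0 before the chase, 248, 230 and 214 after 2 h and 321, 309 and 350 after 6 h. Its unlabelled reads rose by 4.36 and its labelled reads fell by 4.82 on the log2 scale, and its total changed by -0.08 ± 0.15 (adjusted p = 0.64). In GADD45B the labelled reads fell by 3.03 on the log2 scale while the unlabelled reads rose from 28.8 ± 8.47 CPM at 0 h to 194 ± 16.4, 465 ± 11.7 and 452 ± 37.8, so that its total rose by 1.94 on the log2 scale. JUN had 72.4 ± 8.58 unlabelled CPM at 0 h and 996 ± 85.8 at 6 h, with 580 ± 85.5 and 66.3 ± 11.2 labelled CPM. EGR1 levelled off, with 137 ± 7.30 unlabelled CPM at 4 h and 136 ± 5.53 at 6 h.

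GAPDH lost both kinds of reads, as did a part of the ribosomal protein genes. The labelled reads of GAPDH were at 558 ± 144 CPM at 0 h and 189 ± 17.5 at 6 h, and its unlabelled reads at 714 ± 63.8 and 295 ± 40.7. Labelled reads fell in 50 of the 53 ribosomal protein genes, and unlabelled reads fell in 34 and rose in 6, against 9.9% and 71.1% of all entries. Without replicate 3 at 0 h the counts were 29 and 11. In that library RPL41 had 2845 labelled and 414 unlabelled CPM, against 796 and 787 labelled and 110 and 93.2 unlabelled in its partners, while its share there was 87.3%, against 87.9% and 89.4%. Respiratory chain genes had 24 of 49 falling and 10 rising in unlabelled reads, or 21 and 11 without that library. In the immediate early list unlabelled reads rose in 20 of 20, and in the short-lived list in 33 of 36. Labelled reads fell in 20 of 20 and in 27 of 36, against 77.6% of all entries. Their median log2 change was -2.75 and -1.72 in these lists and -1.96 in the ribosomal protein genes, against -1.53 over all tested entries. Unlabelled reads had medians of 3.82 and 5.40 in the 2 short-lived groups, against 2.59 over all.

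**Figure D4:**
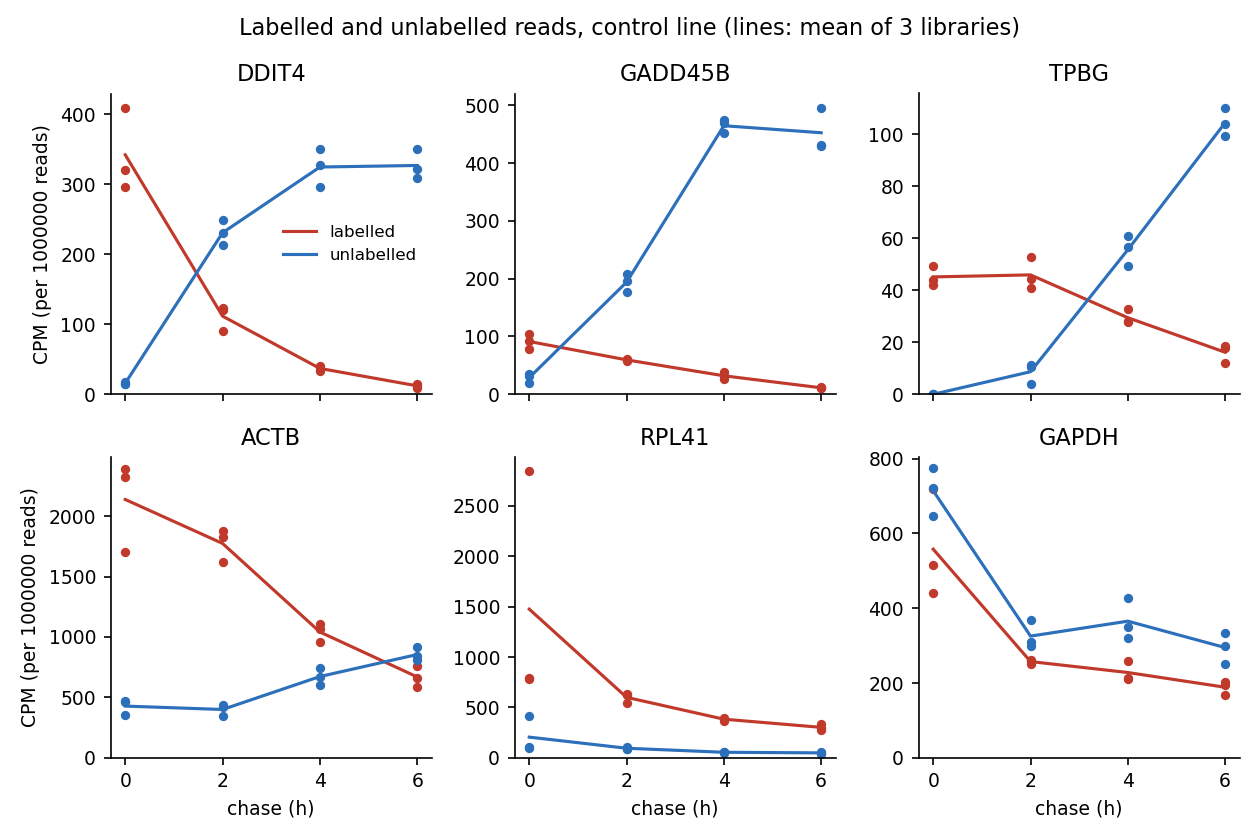
Labelled and unlabelled reads (CPM, vertical axis, from 0) against hours of chase for 6 genes of the control line, with points for libraries and lines through the means of 3. In DDIT4, GADD45B, TPBG and ACTB unlabelled reads come to exceed labelled ones, whereas in RPL41 and GAPDH both decline, and the high RPL41 point at 0 h is replicate 3.

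The 258 entries whose labelled reads rose during the chase all gained unlabelled reads too. Their median share went from 93.9% at 0 h to 23.7% at 6 h, and their median level of labelled reads was 15.8, 39.7, 48.5 and 35.2 CPM at the 4 times. The median T content of their 3′ UTRs was 35.8%, against 29.4% over all tested entries with a UTR, and their median UTR length was 3021.5 bases against 1824. The part of base composition in this rise was not tested. HIPK3, a nuclear kinase, had 7.76, 3.75 and 11.2 labelled CPM at 0 h, and 58.7, 38.7 and 43.3 at 2 h, without overlap, and 21.7 ± 6.38 (SD, n = 3) at 6 h. In EEA1, an endosomal tether, the labelled reads were at 7.29 ± 3.45 CPM (SD, n = 3) at 0 h and 33.4 ± 2.76 at 4 h.

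A group of entries had no unlabelled read at all when the chase began. Of the tested entries 193 had 0 unlabelled reads in the 3 libraries at 0 h, and 23 of them had a mean of at least 100 reads. These 23 had 22 to 229 reads in the 0 h libraries together, and their median share was 74.0% at 2 h, 38.5% at 4 h and 19.1% at 6 h. TPBG, a trophoblast surface glycoprotein, had 0 unlabelled of 229 reads at 0 h, which allows an unlabelled share of up to 1.31% by counting error alone, and NUP160, a nuclear pore subunit, had 0 of 26, which allows up to 11.5%. TPBG went from 100% to 84.6% ± 5.44, 34.7% ± 1.43 and 13.4% ± 3.11, with 0, 8.69 ± 3.96, 55.6 ± 5.76 and 105 ± 5.43 unlabelled CPM at the 4 times. The naming rule's steepest genes (TPBG, SIAH2, SLC16A14, MAPK6, ZNF567, ZCCHC8 and ELF1 among them) and its largest rises of unlabelled reads (HIPK3, NUP160 and EEA1 among them) come from this group. A fitted change from 0 unlabelled reads depends on the prior count of the fit and is no bound, so none is printed for them.

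Base composition moved with the label throughout. The 7189 matched genes were divided into 4 groups of like size by the T content of the 3′ UTR. In the group with the least T (9.73% to 24.7%) the median share was 79.1% at 0 h and 36.3% at 6 h, and in the group with the most (33.3% to 50.4%) it was 93.3% and 25.8%. From the lowest to the highest group the part of entries that fell more steeply than the library was 22.9%, 49.5%, 65.3% and 72.4%, and the part that was shallower was 38.3%, 18.5%, 9.54% and 6.42%. Over these genes, which share the same 12 libraries and are not independent, Spearman's rho of the T content with the 0 h share was 0.44, with the 6 h share -0.18 and with the relative change from 0 to 6 h -0.44. The T content moved with levels as well: the median change of all reads from 0 to 6 h was -0.81 in the lowest group and 1.14 in the highest on the log2 scale.

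The heptamer also differed between steep and shallow genes. When the genes were ordered by relative change into 10 groups of like size, 49.7% of the UTRs in the steepest group held TATTTAT, and 16.7% in the shallowest. The UTRs of the steepest group were also longer, with a median of 2006 bases against 830, and richer in T, with 32.5% against 23.4%. The steepest group was not the highest in either the heptamer or length. Groups 2, 3 and 4 from the steep end held the heptamer in 52.7%, 53.7% and 52.6%, with median lengths of 2584, 2388 and 2487 bases. Per kilobase the heptamer occurred 0.390 times in the steepest group, the highest of the 10, and 0.169 times in the shallowest. How much of this belongs to the heptamer, to length or to T content was not tested. Low T content did not go with a slow course in every gene: the UTRs of MED26 and ARC held 14.8% and 16.3% T, and their shares went from 96.5% ± 4.11 to 5.27% ± 2.07 and from 90.6% ± 8.14 to 1.88% ± 0.631.

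**Figure D5:**
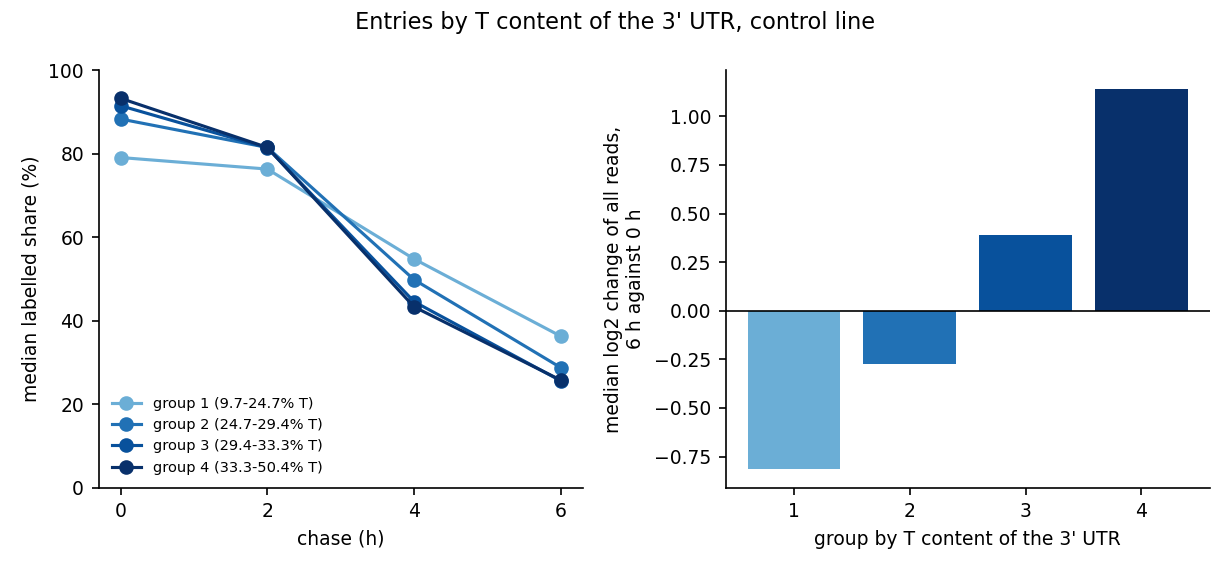
Genes of the control line in 4 groups by the T content of the annotated 3′ UTR. Lines give the median labelled share (percent) against hours of chase, from 79.1% to 93.3% at 0 h and in the opposite order, 36.3% to 25.8%, for the outer groups at 6 h, and bars give the median log2 change of all reads from 0 to 6 h, from -0.81 to 1.14.

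At the other extreme, 208 tested entries had less than 10% of their reads labelled at 0 h, 152 of them less than 3%. They held 12.5% to 14.5% of all unlabelled reads in the 0 h libraries and 2.31% to 2.37% in the 6 h libraries. Of the 185 that could be placed in the annotation, 165 (89.2%) had an exon that overlaps an exon of a gene on the opposite strand, against 40.3% of the other 7042 placed entries. The largest, AP000350.4, had 223277 reads in the 12 libraries of which 25 were labelled, and SYNC, an intermediate filament protein, had 12834 with 1 labelled. Use of strand in the counting is not stated, so reads of such a gene and of its partner cannot be told apart. EIF3G, with 4.99% labelled at 0 h, and ACAT2, with 9.02%, are members of the lists above that belong here.

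The course in the control line was compared with that of the ZC3H7B-OE line by the interaction of line and time. The change of the share from 0 to 6 h differed in 205 of 7544 entries (2.72%): in 176 (2.33%) the ZC3H7B-OE line fell less and in 29 (0.384%) it fell more. These are plain odds, so the change over all reads of each line was not taken out. That share went from 76.7% to 29.9% in the control line and from 74.8% to 29.6% in the other. Among the named genes ACTB, TUBA1B, SLC35C2, DGCR8 and MAPK6 differed, each with a smaller fall of the log2 odds in the ZC3H7B-OE line. ACTB had 83.3% falling to 43.8% in the control line and 79.9% to 53.2% in the other, a difference in the log2 odds of 0.87 ± 0.12 (adjusted p = 8.8e-07). In TUBA1B the difference was 0.33 ± 0.09 (adjusted p = 0.029) and in SLC35C2 1.95 ± 0.45 (adjusted p = 0.0055). The difference of DGCR8 was 1.54 ± 0.37 (adjusted p = 0.011). That of MAPK6 (adjusted p = 0.02) starts from 0 unlabelled reads in the control line and its size depends on the prior count of the fit. MAPK6 had 100% at 0 h and 28.0% at 6 h in the control line, and 89.9% and 27.5% in the other. JUN, EGR1, IER2, DDIT4, GADD45B, BBC3, CDKN1A, RPS29, RPL41 and GAPDH did not pass this test, which does not show that they ran alike.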

How the data were processed

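Members and gene lists were chosen with earlier results of these data known. Reads were trimmed with fastp and placed on GRCh37, per the submitters' processing notes. The aligner, the conversion caller, its threshold and the use of strand are not stated. The deposited tables hold raw read counts per entry, all reads and T-to-C reads, in the same entries for every library. Unlabelled reads were all minus T-to-C reads. edgeR 4.0.16 (R 4.3.3) fitted a robust quasi-likelihood model to both kinds of reads with a term per library (odds), and to each kind alone with TMM factors of all reads (levels in CPM), over 7544 entries with a mean of at least 20 reads. Adjusted p-values are Benjamini-Hochberg at 0.05 over all of them. The odds are plain or relative to the library's own totals of labelled and unlabelled reads. Libraries held 1502068 to 3676254 reads, and intervals on shares cover counting error only, since reads are not molecules. The fits were tested on simulated data.

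Genes were named by rule, needing a mean of 100 reads: the extremes of the relative changes at 6 and 2 h, of unlabelled reads and of pace, the lowest and highest member of each list at 6 h, and 14 genes named whatever their values. The genes with the lowest and highest share at 6 h, those reaching 50% by 2 h and further list members were chosen after their values were seen. Replicates left out in turn, a replicate block, other read limits, DESeq2 1.42.0, limma 3.58.1, other scalings and centring, and both lines in the fit were tried. Leaving out entries with an opposite-strand overlap or under 10% labelled at 0 h, and the list counts without replicate 3 at 0 h, were added after seeing the data. Some members of the marker and gene lists are not reported here.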

Additional observations from a re-analysis of the deposited data

Results flagged for a closer look

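The change of the labelled share from 0 to 6 h differed between the ZC3H7B-OE and control lines in 5 of the named genes, by the interaction in edgeR's quasi-likelihood test, each with a higher value in the ZC3H7B-OE line. In ACTB, beta-actin, the difference was 0.867 in log2 odds (adjusted p = 8.76e-07). In TUBA1B, alpha-tubulin, it was 0.329 (adjusted p = 0.0295), with 89.6% falling to 50.9% in the control and 88.1% to 52.9% in the ZC3H7B-OE line. In SLC35C2 it was 1.95 (adjusted p = 0.00546), with 88.4% falling to 60.9% in the control and 79.6% to 76.2% in the ZC3H7B-OE line. In DGCR8, a subunit of the microRNA processor, it was 1.54 (adjusted p = 0.011), with 91.2% to 45.5% and 87.3% to 63.7%. In MAPK6, an atypical MAP kinase, it was 6.08 (adjusted p = 0.0203), but the control had 0 unlabelled reads at 0 h, so the value depends on the prior count of the fit. Its shares at 6 h were 28.0% in the control and 27.5% in the ZC3H7B-OE line.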

How the results depend on the processing

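Leaving out 1 control replicate at a time gave the following ranges of entries called: 6587 to 6757 for the share from 0 to 6 h, 1860 to 2256 from 0 to 2 h, 5557 to 5927 from 2 to 4 h and 4640 to 5367 from 4 to 6 h. Relative to the library they were 4977 to 5339 (0 to 6 h), 1872 to 2202 (0 to 2 h) and 409 to 1140 for the change in pace, the last with 409, 470 and 457 without replicates 1, 2 and 3 at 4 h. For unlabelled reads they were 5882 to 6197 (6 h) and 2369 to 2921 (2 h), for labelled reads 5822 to 6181, for all reads 4629 to 5562, and for the line difference 135 to 257, with 135 without ZC3H7B-OE replicate 3 at 6 h. The share over all reads moved by -1.94 to 0.0123 points from 0 to 2 h, -29.0 to -27.3 from 2 to 4 h and -18.1 to -17.3 from 4 to 6 h. Where opposite-strand overlaps were left out, 4539 entries were tested and fewer could be called: 4140, 1447, 3677 and 3263 for the share in the same order, 3296 and 1413 relative to the library, 577 for pace, 3746 and 1928 for unlabelled, 3775 for labelled and 3092 for all reads, and 115 for the line difference. limma called 139 entries for pace against 873, and the cause was not tested.

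The replicate numbers of the labels did not pair the libraries: deviations of same-numbered libraries correlated at -0.0272 to 0.0286 for the log-odds. The replicate block gave 6697, 2153, 5849 and 5131 entries for the share, 5233 relative to the library, 784 for pace, 6034 for unlabelled reads and 198 for the line difference.

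Of the alternatives for single genes, 3006 kept direction and call, 76 lost the call, 6 gained one and 16 turned sign. The sign turned in BAG2 (0.18), DGCR8 (0.70), TUBA1B (1.14) and ATF4 (1.23) when centred on the median entry. It turned in single replicates left out for TUBA1B (0.0285), ATF4 (0.22, 0.0186 and 0.16), CCT2 (-0.20 and -0.00223), E2F1 (-0.0828) and EIF3G (-0.77 and -2.70), and for EIF3G also with the block (-0.70), DESeq2 (-0.63) and limma (-0.24). Over all replicates left out, the values ran from -0.20 to 0.14 in CCT2, -2.70 to 0.71 in EIF3G, -0.0828 to 0.31 in E2F1, -0.48 to 0.22 in ATF4 and -0.19 to 0.0285 in TUBA1B. The causes were not tested. Depth limits shares of genes near 100 reads, where a few unlabelled reads at 0 h set the odds.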

Other observations

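In few genes did the labelled share rise during the chase. Among the 4252 entries with enough reads, 8 had all 3 libraries at 6 h above all 3 at 0 h. NDUFA3, a complex I subunit, had a share of 23.8% ± 1.08 (SD, n = 3) at 0 h and of 42.4%, 39.5% and 30.1% in the 6 h libraries, a plain change of 0.94 ± 0.35 (log2 odds ± SE, adjusted p = 0.013 by edgeR's quasi-likelihood test). CD151, a tetraspanin, had 43.3%, 39.1% and 43.3% at 0 h and 48.3%, 56.9% and 47.5% at 6 h, a plain change of 0.51 ± 0.21 (adjusted p = 0.023). In both genes labelled and unlabelled reads fell in CPM, by 1.23 and 2.20 on the log2 scale in NDUFA3 and by 1.74 and 2.24 in CD151.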
